A study of Mus musculus with 9 samples.

Results

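The cytosolic translation initiation and elongation factors were examined in RNA-seq libraries of lung endothelial cells from Tie1-CR and Tie1-WT mice. The genes were taken by symbol: those beginning with Eif or Eef and a digit, together with Pabpc1, Tpt1 and Rack1, and without the Eif2ak kinases. This gave 56 of the 9277 genes in the deposited table, namely 45 called initiation factors, 8 called elongation factors and the other 3. Both classes go by symbol and include regulators. Of the 8, 3 are enzymes that modify elongation factors (Eef1akmt1, Eef2k and Eef2kmt). Tie1-CR mice (5 libraries) carry a Tie1 receptor that resists proteolytic cleavage, and Tie1-WT mice (4 libraries) carry the wild type receptor. All 9 library names carry PBS, and no inflammatory treatment is analysed here. The sources used here do not give strain, age, sex or zygosity of the mice, how cells were isolated, or how the cleavage-resistant receptor was made. Whether every library came from a mouse of its own is not stated, and the p-values therefore reflect variation among these libraries that may be technical.

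Translation begins when the eIF4F complex binds the messenger RNA cap, its helicase eIF4A opens the leader, and eIF2 brings the initiator tRNA to the small ribosomal subunit. eIF3 holds this assembly together, eIF1 and eIF5 set the start codon, and the poly(A)-binding protein Pabpc1 links the tail of the messenger to eIF4F. In elongation, eEF1A delivers each aminoacyl-tRNA and eEF2 moves the ribosome on. Many of the mRNAs for elongation factors, and those for Pabpc1, Tpt1 and Rack1, start with a terminal oligopyrimidine (TOP) tract through which mTORC1 controls their translation.

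The values are CPM (read counts scaled to 1 common library total) from 38208696 to 54408116 counted reads per library, without correction for gene length. All 9 endothelial markers checked were present, summing to 16070 to 16704 CPM in Tie1-CR and 14754 to 16365 CPM in Tie1-WT. Of these, Erg was lower in Tie1-CR, at 37.5 ± 1.77 CPM in Tie1-CR (SD, n = 5) and 50.3 ± 3.61 CPM in Tie1-WT (SD, n = 4) (limma adjusted p = 0.00516). The 7 measured markers of type 2 pneumocytes and airway cells summed to 325 to 669 CPM in Tie1-CR and 122 to 477 CPM in Tie1-WT, and 3 of them (Sftpd, Cbr2 and Cyp2f2) were higher in Tie1-CR. Of 6 leukocyte markers, Ptprc, Cd3e, Cd79a and Itgam were not among the listed genes. The other 2 summed to 60.2 to 118 CPM in Tie1-CR and 30.6 to 76.9 CPM in Tie1-WT, with Cd68 past the threshold. The part of these other cells in the results below was not tested. In bulk libraries, fewer cells of a type and less RNA per cell cannot be told apart.

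Transcripts of the helicases Eif4a1 and Eif4a2, of the start codon factor Eif5 and of Pabpc1 were lower in Tie1-CR, and no translation factor was higher (limma across all genes, Benjamini-Hochberg adjusted p below 0.05). These 4 of 56 genes compare with 4.05% of all genes past the threshold in either direction, 2.77% past it and lower, and 1.28% past it and higher. That split of all genes, 119 higher and 257 lower, was 182 higher and 194 lower with TMM scaling and 183 higher and 190 lower with quantile normalization. Initiation factors made up 3 of the 4 (3 of 45), Pabpc1 was the other, and 0 of 8 elongation factors passed. At an unadjusted p below 0.05 there were 12 of the 56 genes, each lower in Tie1-CR, among them 1 elongation factor, Eef1a1. Of all 9277 genes, 2065 had such a p, and 1298 of these were lower. The groups did not overlap for 8 of the 56 genes, each lower in Tie1-CR, while 10.5% of all genes did not overlap and 6.74% did not overlap and were lower. These were Eif4a1, Eif4a2, Eif4g2, Eif5, Eif2s2, Eif2a, Eef1a1 and Pabpc1. Of the 56 differences, 41 lay below 0 (73.2%, against 58.5% of all genes), and their median was -0.06 log2 beside -0.03 for all genes. The range was -0.57 to 0.15 log2.

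**Figure D1:**
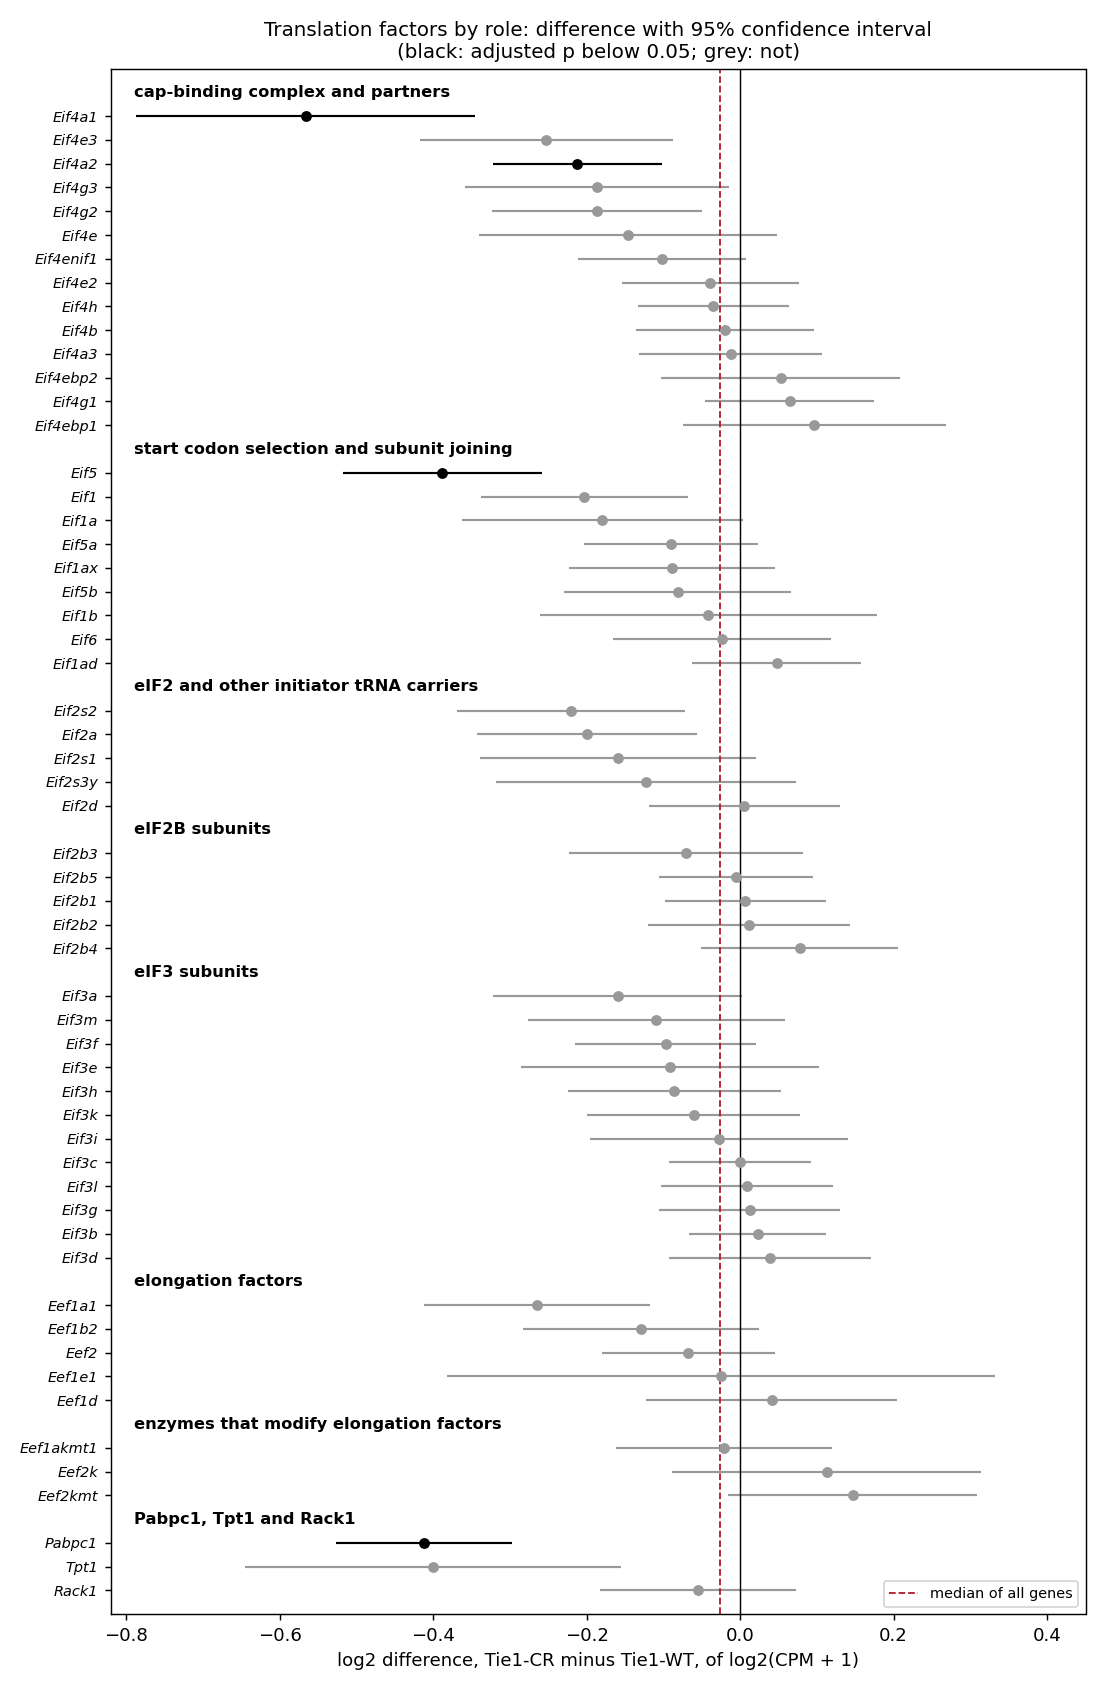
Difference in log2(CPM + 1), Tie1-CR minus Tie1-WT, for each of the 56 genes in blocks by role, with 95% confidence intervals from the limma fit. The 4 black points passed the adjusted threshold and lie between -0.57 and -0.21, while the grey points did not pass, and the dashed line marks the median of all genes.

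Eif4a1 encodes the main ATP-dependent RNA helicase of eIF4F and lies on chromosome 11 (chr11:69666936-69672423, minus strand, GRCm38). Its levels in the Tie1-CR libraries were 81.1, 112, 73.9, 88.7 and 84.1 CPM, against 131, 140, 127 and 120 CPM in Tie1-WT. Every Tie1-CR library was below every Tie1-WT library, with Tie1-CR replicate 2 nearest to them. Eif4a1 averaged 88.0 ± 14.5 CPM in Tie1-CR (SD, n = 5) and 130 ± 8.48 CPM in Tie1-WT (SD, n = 4), 1.47-fold lower in Tie1-CR. The log2 difference was -0.57 (SE 0.10, limma adjusted p = 0.0135). Without Tie1-WT replicate 1 or 2 its adjusted p was 0.0595 or 0.0514, at -0.56 or -0.53 log2. Of its 50-base stretches, 28.4% also occur in transcripts of other annotated genes, pseudogenes included, and 3 small nucleolar RNA genes lie within it. How such shared reads were counted is not stated.

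Eif4a2, a close paralogue of Eif4a1, measured 93.1, 104, 92.4, 90.8 and 101 CPM in Tie1-CR, against 113, 111, 110 and 112 CPM in Tie1-WT. The Tie1-WT libraries were nearly identical, and each Tie1-CR library lay below them. The fall was 1.16-fold, a log2 difference of -0.21 (SE 0.05, limma adjusted p = 0.0414). The gene lies on chromosome 16 (chr16:23107444-23114136, plus strand), where Rfc4 overlaps its exons on the other strand, and counting by strand is not stated. Its call ended with TMM scaling (-0.19 log2, adjusted p = 0.0582) and with the GC content and length correction (-0.11 log2, adjusted p = 0.239). The call also ended with a replicate block (-0.23 log2, adjusted p = 0.0983) and without any single library other than Tie1-CR replicate 2. Eif4a2 passed in 7 of 18 alternative fits. Eif4a3, the third paralogue, is a helicase of the exon junction complex rather than of eIF4F. It averaged 96.5 ± 6.75 CPM in Tie1-CR (SD, n = 5) and 97.2 ± 2.07 CPM in Tie1-WT (SD, n = 4), with a 95% interval of the log2 difference from -0.13 to 0.11.

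**Figure D2:**
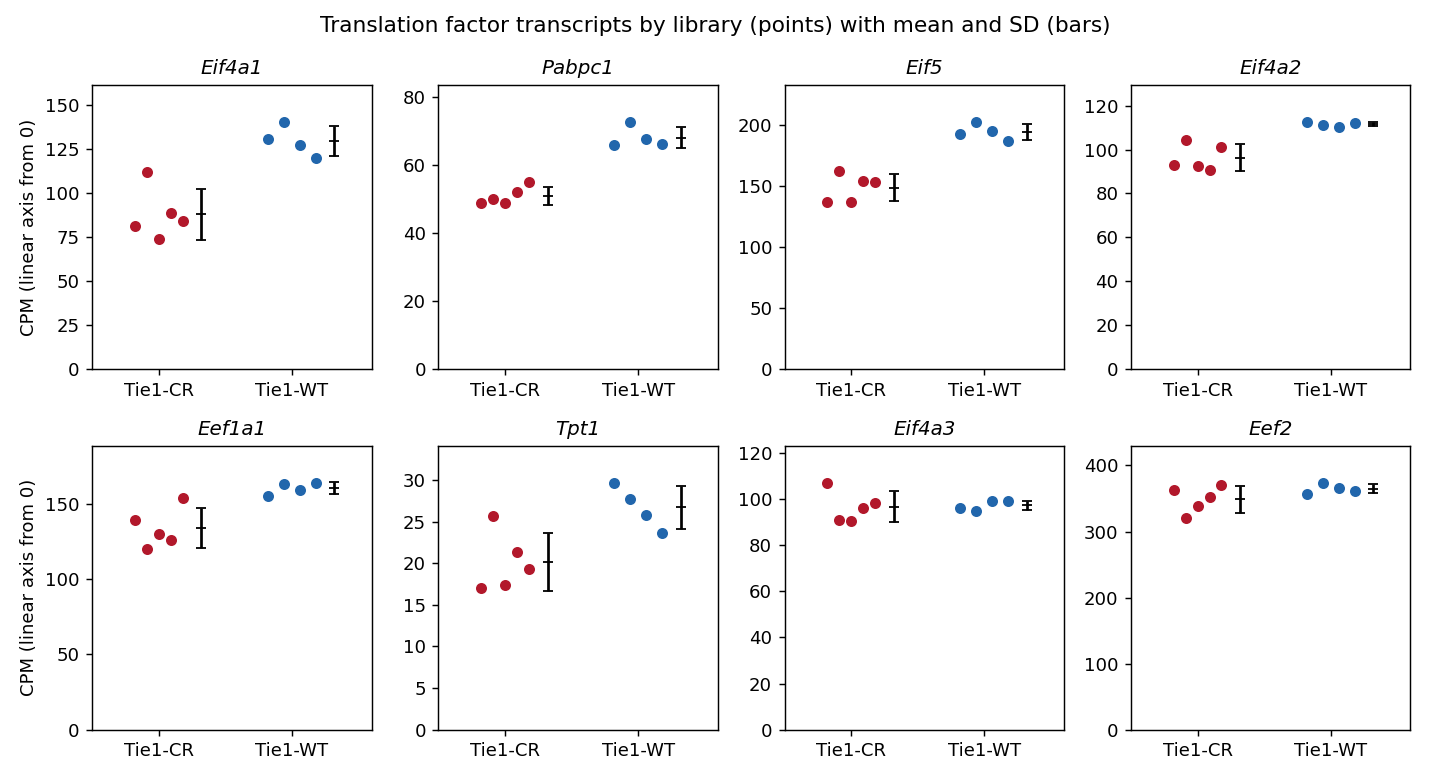
CPM by library for 8 genes, with points for the Tie1-CR and Tie1-WT libraries and bars for the mean and SD of each group (n = 5 and n = 4). Tie1-CR points lie below all Tie1-WT points for Eif4a1, Pabpc1, Eif5, Eif4a2 and Eef1a1, and overlap them for Tpt1, Eif4a3 and Eef2.

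Eif5, which makes eIF2 hydrolyse its GTP when the start codon is found, is on chromosome 12 (chr12:111538016-111546752, plus strand). Its Tie1-CR libraries had 137, 162, 137, 154 and 153 CPM, against 193, 203, 196 and 188 CPM in Tie1-WT. Every Tie1-CR library lay below every Tie1-WT library, with Tie1-CR replicate 2 nearest to them. Eif5 averaged 149 ± 11.3 CPM in Tie1-CR (SD, n = 5) and 195 ± 6.39 CPM in Tie1-WT (SD, n = 4), 1.31-fold lower in Tie1-CR. The log2 difference was -0.39 (SE 0.06, limma adjusted p = 0.00765), and it passed in all 18 alternative fits (adjusted p 0.00481 to 0.034). Among the 18, the fit without a filter repeats the reported fit, since the filter removed no gene.

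Pabpc1, the cytoplasmic poly(A)-binding protein that loops the messenger by binding eIF4G, lies on chromosome 15 (chr15:36595661-36609668, minus strand). The Tie1-CR libraries measured 48.8, 49.9, 48.7, 52.1 and 55.0 CPM, against 65.7, 72.6, 67.7 and 66.1 CPM in Tie1-WT. The 5 Tie1-CR values lay close together and all below the Tie1-WT values. The mean was 50.9 ± 2.68 CPM in Tie1-CR (SD, n = 5) and 68.0 ± 3.16 CPM in Tie1-WT (SD, n = 4), a 1.34-fold fall and the smallest adjusted p of the 56 genes (-0.41 log2, SE 0.05, limma adjusted p = 0.00372). It too passed in all 18 alternative fits (adjusted p 0.00323 to 0.0176).

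The remaining partners of eIF4F gave no call. Eif4g1, the large scaffold, averaged 364 ± 19.3 CPM in Tie1-CR (SD, n = 5) and 348 ± 8.41 CPM in Tie1-WT (SD, n = 4). Eif4g2, a scaffold that lacks the cap-binding protein's docking site, measured 795, 701, 841, 714 and 792 CPM in Tie1-CR, against 887, 884, 852 and 867 CPM in Tie1-WT. Its groups did not overlap, but the log2 difference of -0.19 did not pass (limma adjusted p = 0.11). Eif4g3, a paralogue of Eif4g1, differed by -0.19 log2 as well (limma adjusted p = 0.19). Eif4e, the cap-binding protein, averaged 27.1 ± 3.72 CPM in Tie1-CR (SD, n = 5) and 29.9 ± 0.944 CPM in Tie1-WT (SD, n = 4). Its relative Eif4e3 differed by -0.25 log2 (limma adjusted p = 0.079), and by -0.31 log2 without Tie1-CR replicate 5 (adjusted p = 0.0324). The helicase cofactors Eif4b and Eif4h differed by -0.02 and -0.03 log2. The repressors of Eif4e, Eif4ebp1 and Eif4ebp2, differed by 0.10 and 0.05 log2 (limma adjusted p = 0.489 and 0.694).

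Ratios between paralogues show whether members of a family moved unequally within the same library. Of 12 within-family ratios, chosen after the values had been seen, 5 had an unadjusted p below 0.05 (two-sided exact permutation of the 9 libraries, smallest possible p 0.00794). None of the 12 passed after Benjamini-Hochberg adjustment over the 12. The ratio of Eif4a1 to Eif4a3, in CPM without length correction, was 0.918 ± 0.186 in Tie1-CR (SD, n = 5) and 1.34 ± 0.114 in Tie1-WT (SD, n = 4) (exact permutation p = 0.0238, adjusted p = 0.0714). The ratio of Eif4g2 to Eif4g1 was 2.12 ± 0.255 in Tie1-CR (SD, n = 5) and 2.51 ± 0.0654 in Tie1-WT (SD, n = 4), with groups that did not overlap (exact permutation p = 0.0238, adjusted p = 0.0714). By contrast, Eif4g2 to Eif4g3 stood at 3.82 ± 0.398 in Tie1-CR (SD, n = 5) and 3.81 ± 0.319 in Tie1-WT (SD, n = 4). The ratio of Eif4e3 to Eif4e2 was 0.289 ± 0.0163 in Tie1-CR (SD, n = 5) and 0.339 ± 0.0171 in Tie1-WT (SD, n = 4) (exact permutation p = 0.0238, adjusted p = 0.0714).

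**Figure D3:**
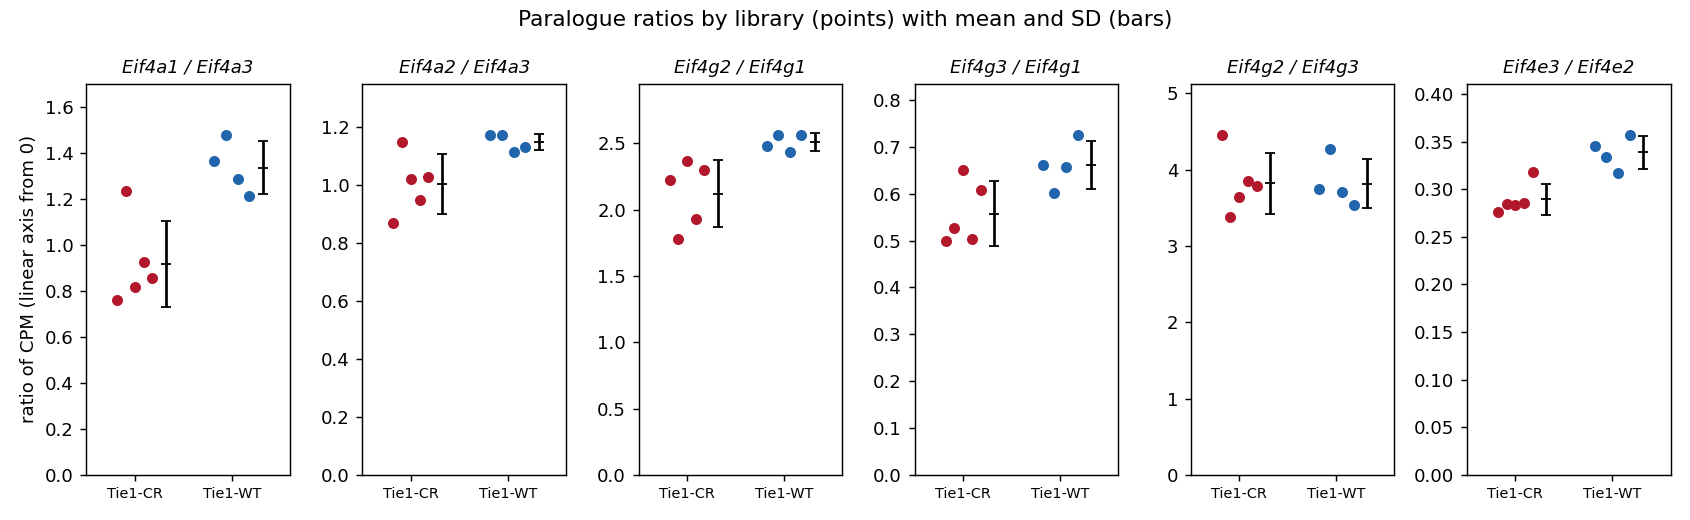
Ratio of CPM of 2 paralogues in each library, for 6 of the 12 ratios computed, with points for libraries and bars for the mean and SD of each group. Eif4g2 to Eif4g1 is the ratio shown whose 5 Tie1-CR points all lie below the 4 Tie1-WT points, and Eif4g2 to Eif4g3 is alike in both groups.

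Among the factors that carry or check the initiator tRNA, 0 of 5 passed. The eIF2 subunit genes Eif2s1 and Eif2s2 differed by -0.16 and -0.22 log2 (limma adjusted p = 0.276 and 0.0874). Eif2s2, the beta subunit, had 12.3, 11.7, 11.2, 11.1 and 11.7 CPM in Tie1-CR, against 13.6, 13.8, 14.7 and 12.8 CPM in Tie1-WT. Its groups did not overlap, at a low level in both. Eif2s3y, the Y-linked copy of the gamma subunit gene, was read in every library, at 33.6 to 45.6 CPM in Tie1-CR and 37.5 to 45.8 CPM in Tie1-WT. The scanning factor Eif1 averaged 325 ± 20.0 CPM in Tie1-CR (SD, n = 5) and 374 ± 24.1 CPM in Tie1-WT (SD, n = 4), a log2 difference of -0.20 (limma adjusted p = 0.0842). Eif6, which keeps free large subunits from joining, differed by -0.02 log2, and Eif5a, a hypusine-bearing factor that eases stalled peptide bonds, by -0.09 log2 (limma adjusted p = 0.86 and 0.325).

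The multisubunit complexes eIF2B and eIF3 gave no call in any subunit. eIF2B recharges eIF2 with GTP and is the target of the integrated stress response. Its 5 subunit genes differed by -0.07 (Eif2b3) to 0.08 log2 (Eif2b4), and the catalytic subunit Eif2b5 averaged 75.7 ± 2.82 CPM in Tie1-CR (SD, n = 5) and 76.0 ± 2.72 CPM in Tie1-WT (SD, n = 4). The 12 measured eIF3 subunit genes differed by -0.16 (Eif3a) to 0.04 log2 (Eif3d), with a median of -0.04. Eif3c, a core subunit, averaged 109 ± 3.35 CPM in Tie1-CR (SD, n = 5) and 109 ± 2.76 CPM in Tie1-WT (SD, n = 4), with a 95% interval of the log2 difference from -0.09 to 0.09.

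Elongation factors did not pass as single genes. Eef1a1, the tRNA-delivering GTPase on chromosome 9 (chr9:78478449-78489151, minus strand), measured 139, 120, 130, 126 and 154 CPM in Tie1-CR, against 155, 163, 159 and 164 CPM in Tie1-WT. The groups did not overlap, though Tie1-CR replicate 5 was close to the lowest Tie1-WT library. The log2 difference of -0.26 lay just outside the threshold (limma adjusted p = 0.0512). It passed without Tie1-CR replicate 5 (-0.32 log2, adjusted p = 0.019) and with robust empirical Bayes (adjusted p = 0.0478), and did not pass in the other 16 alternative fits. Of its 50-base stretches, 40.4% recur in transcripts of other annotated genes, so its level is uncertain. Eef1b2, part of the exchange factor that reloads eEF1A, differed by -0.13 log2 (limma adjusted p = 0.304), and Eef1d, another part, by 0.04. Eef2, the translocase, averaged 349 ± 19.9 CPM in Tie1-CR (SD, n = 5) and 365 ± 7.02 CPM in Tie1-WT (SD, n = 4), with a 95% interval of the log2 difference from -0.18 to 0.05. Eef2k, the kinase that inhibits eEF2, and Eef2kmt, the enzyme that methylates it, differed by 0.11 and 0.15 log2 (limma adjusted p = 0.493 and 0.267).

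Set side by side, the median log2 difference was -0.07 for the 45 initiation factors and -0.02 for the 8 elongation factors, beside -0.03 for all genes. The elongation median turned positive with the GC content and length correction (0.06), with quantile normalization (0.03), and without Tie1-WT replicate 3 (0.01), Tie1-CR replicate 2 (0.01) or Tie1-CR replicate 4 (0.02). The initiation median was -0.01 with that correction and -0.03 with quantile normalization. The elongation median minus the initiation median was 0.05. Computed within each library from the deviations described below, this gap was 0.022, -0.034, 0.015, 0.038 and -0.001 in Tie1-CR replicates 1 to 5. In the Tie1-WT libraries it lay between -0.018 and 0.013, inside the Tie1-CR range. The SD between libraries of these library values was 0.0228, and it is not an error of the 0.05. The sign of the difference of 0.05 depended on which genes were counted. This difference was -0.02 when regulators, modifying enzymes and Eef1e1 were left out. With Eef1e1 kept, the elongation median was -0.07 over 5 genes, beside -0.08 for the initiation factors without regulators. The difference was -0.03 among genes with a mean of at least 20 CPM. It ran from 0.01 without Tie1-WT replicate 4 to 0.08 without Tie1-CR replicate 4, and was 0.02 without Tie1-CR replicate 1. The difference between the classes was not tested, and neither was that between their counts of 3 of 45 and 0 of 8.

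**Figure D4:**
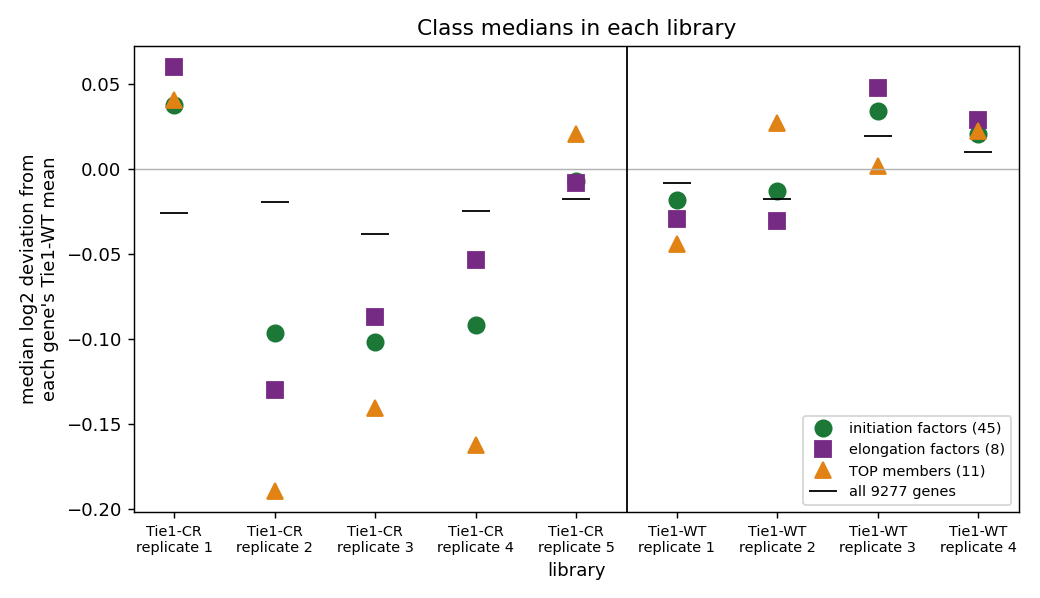
Median over the genes of each class of the log2 deviation from each gene's Tie1-WT mean, by library, with the 9277 genes as dashes. In Tie1-CR replicates 2, 3 and 4 the medians of initiation and elongation factors lie between -0.13 and -0.05, while in replicate 1 they are 0.04 for initiation and 0.06 for elongation factors, and in replicate 5 both are -0.01.

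The median deviation of the initiation factors was 0.04, -0.10, -0.10, -0.09 and -0.01 log2 in Tie1-CR replicates 1 to 5, and between -0.02 and 0.03 in the Tie1-WT libraries. Replicates 2, 3 and 4 thus lay below every Tie1-WT library, and replicates 1 and 5 lay within or above their range. The median over all genes was -0.03, -0.02, -0.04, -0.02 and -0.02 log2 in Tie1-CR replicates 1 to 5, and between -0.02 and 0.02 in the Tie1-WT libraries. In 32 of the 56 genes (57.1%), Tie1-CR replicates 1 and 5 both exceeded replicates 2 and 4, a pattern picked after the values were seen and found in 28.2% of all genes. Eif1b, a paralogue of Eif1, shows it, at 43.3 and 38.8 CPM in replicates 1 and 5 and 30.4 and 29.7 CPM in replicates 2 and 4. The spread of log2 values was larger in Tie1-CR than in Tie1-WT for 48 of 56 genes (85.7%), beside 63.8% of all genes. Replicates 2 and 4 had the fewest counted reads of the Tie1-CR libraries (38208696 and 44346998, against 51482114 to 54408116 in the others). Replicate 3, whose initiation median was also low (-0.10), had 53048957. The part of depth in these patterns was not tested.

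**Figure D5:**
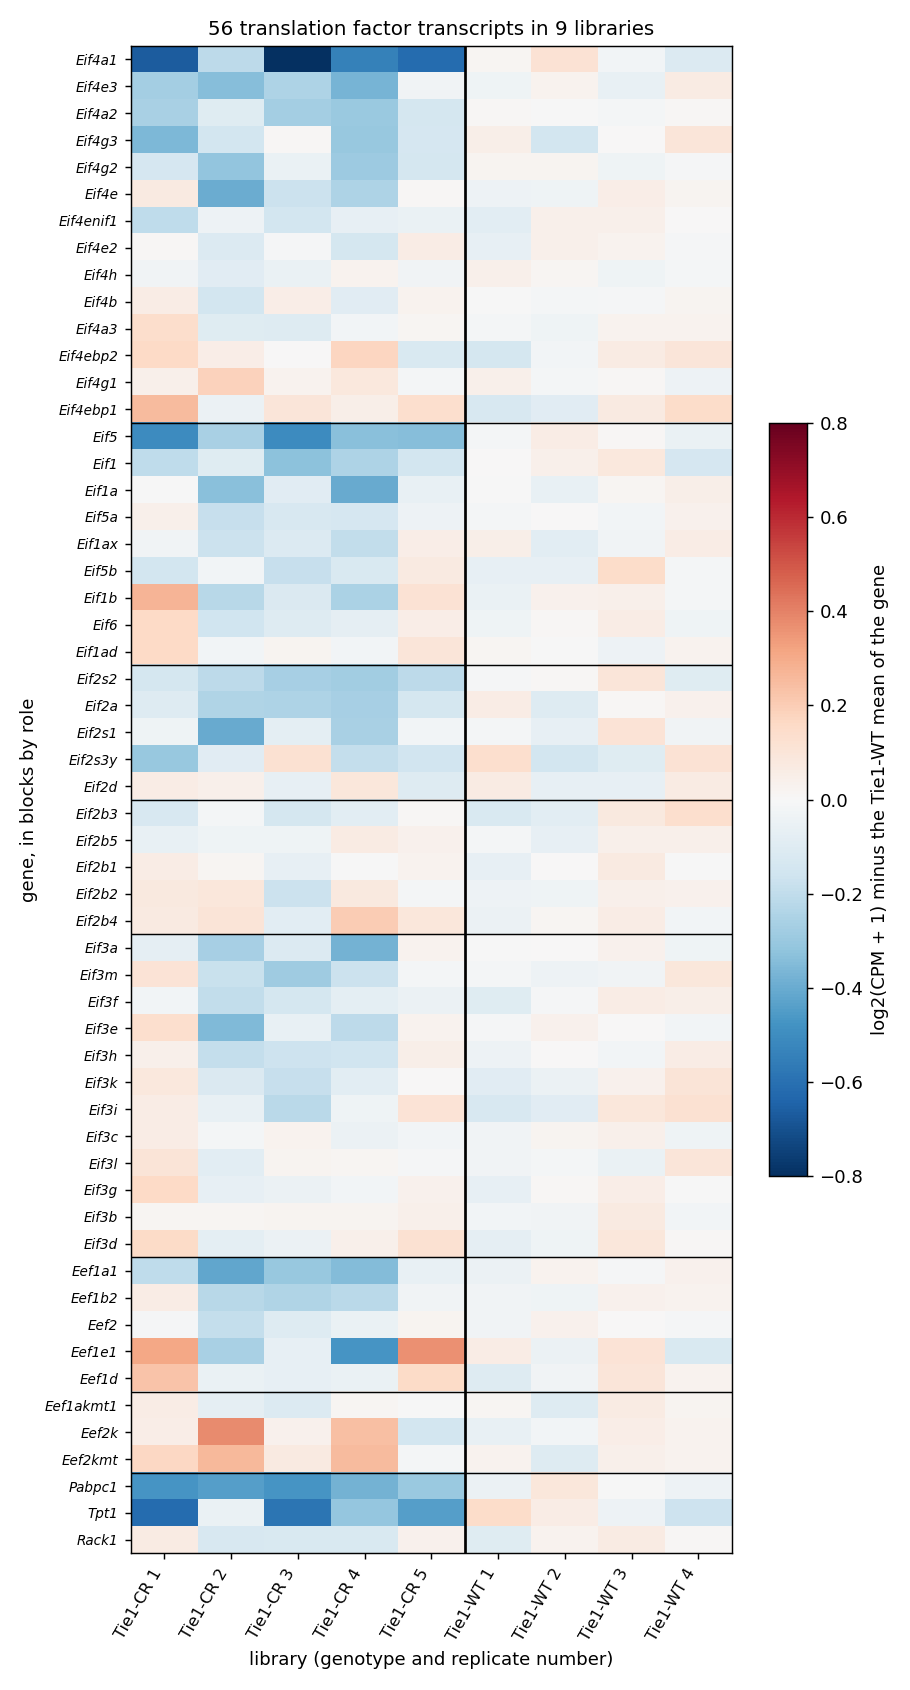
log2(CPM + 1) minus the gene's Tie1-WT mean for the 56 genes (rows, in blocks by role) in 5 Tie1-CR and 4 Tie1-WT libraries (columns). Eif4a1, Eif4a2, Eif5 and Pabpc1, which passed the threshold, are below 0 in all 5 Tie1-CR libraries. Eef1a1, which did not pass, is below 0 in all 5 as well, though only slightly in replicate 5. Many other genes are blue mainly in Tie1-CR replicates 2, 3 and 4.

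In 10 of the 56 genes (17.9%, beside 23.7% of all genes), Tie1-CR replicate 2 was the highest of the Tie1-CR libraries. These were Eif4a1, Eif4a2, Eif5, Eif1, Tpt1, Eif4g1, Eif4enif1, Eif2b2, Eef2k and Eef2kmt. Tpt1, the translationally controlled tumour protein, measured 17.1, 25.7, 17.4, 21.3 and 19.3 CPM in Tie1-CR, against 29.7, 27.8, 25.8 and 23.7 CPM in Tie1-WT. Its groups overlapped through Tie1-CR replicate 2, and the log2 difference of -0.40 did not pass (limma adjusted p = 0.0682). Of 18 alternative fits, Tpt1 passed in 1, without Tie1-CR replicate 2 (-0.49 log2, adjusted p = 0.0178). Among the others the adjusted p reached 0.192. Of its 50-base stretches, 18.7% recur in transcripts of other annotated genes, so its level is uncertain.

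Of the 12 TOP mRNAs listed among translation factors, 11 were in the table. Of the 11, Pabpc1 alone passed (4.05% of all genes did), and 10 had differences below 0 (58.5% of all genes did). Their median was -0.09 log2, beside -0.04 for the other 45 genes and -0.03 for all genes, and it was -0.04 with the GC content and length correction and -0.06 without Tie1-CR replicate 2. The library medians of the 11 were 0.04, -0.19, -0.14, -0.16 and 0.02 log2 in Tie1-CR replicates 1 to 5, and -0.04 to 0.03 in Tie1-WT. Rack1, a ribosomal scaffold protein and TOP mRNA, averaged 69.8 ± 4.77 CPM in Tie1-CR (SD, n = 5) and 72.5 ± 3.52 CPM in Tie1-WT (SD, n = 4) (limma adjusted p = 0.605). The TOP mRNAs thus ranged from Pabpc1, well below its Tie1-WT level, to Eef1d, just above it.

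Sequence around annotated transcription starts was read for 44 of the 56 genes from RefSeq (GRCm38.p6). The windows below run from 25 bases before the start to 25 after it. They are shown for a pair of TOP mRNAs with a marked run and for the gene with the longest marked run shown. The genes lower in Tie1-CR that had an entry are shown as well. Capitals mark a run of C and T, opening with C, of at least 8 bases.
Rack1 (chr11:48800335-48800384, plus): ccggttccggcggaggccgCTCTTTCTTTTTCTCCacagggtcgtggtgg
Eef1a1 (chr9:78481700-78481749, minus): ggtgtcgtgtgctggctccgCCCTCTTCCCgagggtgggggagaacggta
Eif2b5 (chr16:20498792-20498841, plus): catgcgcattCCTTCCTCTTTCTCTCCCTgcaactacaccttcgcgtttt
Eif4a1 (chr11:69672399-69672448, minus): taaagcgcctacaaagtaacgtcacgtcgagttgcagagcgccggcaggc
Eif4a2 (chr16:23107443-23107492, plus): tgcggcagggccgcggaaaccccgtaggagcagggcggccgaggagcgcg
Eif5 (chr12:111538076-111538125, plus): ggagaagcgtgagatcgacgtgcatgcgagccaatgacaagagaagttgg

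Rack1 and Eef1a1 are TOP mRNAs, and Eif2b5 holds the longest run of these 6 although it is not on the TOP list. The helicase genes and Eif5 hold no such run in this window. Neither do Tpt1, Eef1b2, Eef2 and Eif4b, which are on the TOP list, while Eif3f, also on it, does. RefSeq lists several starts for some genes, and the windows printed are those of the first listed. Counting a run at any listed start, 12 of 44 translation factors (27.3%) and 18.9% of the 7159 genes of the table with an entry hold one. Among the 12, Eef2k and Eif4e hold theirs at a start other than the first listed. A run in the window is a description of the sequence, and annotated starts may differ from those used in these cells. It may lie on either side of the start. Whether a marked run, that of Eef1a1 or Rack1 included, is the TOP tract at which the mRNA begins was not tested.

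A letter match more frequent in these genes than in the table was the palindrome CACGTG, the core of the E-box bound by Myc and related factors. It was searched on both strands from 250 bases before to 50 after every listed start, and occurred at 1 or more of them in 11 of 44 translation factors (25%) and in 12.25% of the 7159 genes. The 11 are Eef2, Eef2k, Eif1b, Eif3a, Eif3f, Eif3k, Eif4a1, Eif4e, Eif4g1, Eif4h and Eif5a, of which Eif4a1 alone was past the threshold. One match is shown in capitals for each of 3 genes of the cap-binding complex that differ in their change, and Eif4e and Eif4g1 each hold another.
Eif4a1 (chr11:69672595-69672624, minus): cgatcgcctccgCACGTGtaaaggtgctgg
Eif4e (chr3:138527192-138527221, plus): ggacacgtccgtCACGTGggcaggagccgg
Eif4g1 (chr16:20672661-20672690, plus): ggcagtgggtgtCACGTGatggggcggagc
Of the other motifs searched in the same way, CCGGAAG was found in 15 of 44 translation factors (34.1%, against 21.7% of the 7159 genes), TGANTCA in 4 (9.09%, against 5.88%) and TGACGTCA in 1 (2.27%, against 3.74%).

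Levels between genes were compared as CPM per kilobase of annotated exon, in which these genes spanned a wide range. Eif1 was highest, at 155 ± 9.54 in Tie1-CR (SD, n = 5) and 178 ± 11.5 in Tie1-WT (SD, n = 4), followed by Eef2 at 105 ± 5.98 in Tie1-CR and 110 ± 2.11 in Tie1-WT. Subunit genes of eIF3 ran from 3.76 to 65.1 CPM per kilobase in Tie1-CR and from 3.99 to 64.1 in Tie1-WT. Eif4a3 stood above its paralogues, at 42.6 to 50.4 CPM per kilobase in the Tie1-CR libraries and 44.7 to 46.6 in the Tie1-WT libraries. Eif4a1 (17.0 to 25.9) and Eif4a2 (17.0 to 19.6) overlapped in the Tie1-CR libraries. In the Tie1-WT libraries Eif4a1 (27.7 to 32.4) lay above Eif4a2 (20.7 to 21.1) without overlap. The exon length counts every annotated isoform, so levels of genes with long rare isoforms are understated. The genes also differ in the share of 50-base stretches found in other annotated genes. It was 28.4% for Eif4a1, 19.2% for Eif1, 16.5% for Eif4a3, 13.6% for Eif4a2 and 7.1% for Eef2. How shared reads were counted is not stated, so the order of these genes is uncertain.

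The wider translation pathway was described with 7 lists holding 59 measured genes, of which 5 fell and 0 rose, beside 2.77% lower and 1.28% higher among all genes. Ppp1r15a, the stress-induced subunit that directs a phosphatase to eIF2, had 458, 477, 536, 398 and 521 CPM in Tie1-CR, against 970, 940, 758 and 628 CPM in Tie1-WT. The groups did not overlap, and the fall was 1.72-fold (-0.77 log2, SE 0.13, limma adjusted p = 0.0108). Without Tie1-WT replicate 1 its adjusted p was 0.0502, at -0.68 log2. Ppp1r15b, the constitutive subunit, chosen after its values were seen, averaged 152 ± 16.9 CPM in Tie1-CR (SD, n = 5) and 154 ± 5.11 CPM in Tie1-WT (SD, n = 4).

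Eif2ak2, the double-stranded RNA sensor kinase PKR and an interferon-induced gene, had 21.3, 21.5, 24.7, 19.8 and 21.8 CPM in Tie1-CR, against 30.8, 25.9, 29.3 and 31.8 CPM in Tie1-WT. All Tie1-CR libraries lay below the Tie1-WT libraries, and the fall was 1.35-fold (-0.42 log2, limma adjusted p = 0.0144, and 0.0665 without Tie1-WT replicate 1). The release factor gene Etf1, which ends translation at stop codons, fell 1.25-fold, with 34.2 to 41.8 CPM in Tie1-CR and 45.2 to 49.4 CPM in Tie1-WT (limma adjusted p = 0.0206). Its adjusted p was 0.0579 to 0.0811 without Tie1-WT replicate 1, 2 or 3. Ddx3x, a helicase that helps structured leaders, and Dph3, needed for the diphthamide of eEF2, each fell 1.16-fold (limma adjusted p = 0.0476 and 0.0498). Both of these calls ended in most alternative fits, as Ddx3x passed in 7 of 18 and Dph3 in 3 of 18.

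None of the 17 mTORC1 and MNK signalling genes passed, the smallest p being that of the kinase gene Rps6ka3 (-0.11 log2, limma adjusted p = 0.177). Likewise 0 of 6 start and reinitiation partners passed (Abcf1, 0.07 log2, limma adjusted p = 0.315) and 0 of 5 mitochondrial and selenocysteine elongation genes (Gfm1, -0.11 log2, limma adjusted p = 0.176).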

How the data were processed

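RNA-seq of lung endothelial cells from Tie1-CR (5) and Tie1-WT (4) mice was used. Per the labels' protocols, libraries came from a SMARTer Ultra Low kit. The submitters' processing notes name STAR 2.7 and GRCm38.p6. No counter, annotation or gene filter is stated there. The authors deposited 1 table that is called TPM, but its values are CPM: 100% are whole multiples of a library step within 0.01 reads, the same step for every gene. Every gene reaches 10.0 CPM in some library, and no value is 0, the lowest being 0.349 CPM. Genes outside the table are not analysed here.

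Values were used as log2(CPM + 1), and a minimum of 1 CPM in 4 libraries left every gene in. This scale understates changes of low genes. Tie1-CR was compared with Tie1-WT over all 9277 genes with limma 3.58.1 (R 4.3.3, trended empirical Bayes, two-sided, Benjamini-Hochberg threshold 0.05), checked on simulated data. Lists carry no test. Exon lengths, positions and shared 50-base stretches came from GENCODE M21 (GRCm38), which matched 9048 symbols. Ratios used exact permutation. Alternatives were the pseudocount, filter, TMM and quantile scaling, robust variance, a replicate block, each library left out, class membership and, added after seeing the data, a GC content and length correction by splines with 4 degrees of freedom.

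Members and lists were chosen with earlier results of these data known. Named are the genes past the threshold, the 3 highest and 3 lowest differences among initiation and among elongation factors, the most abundant gene per length of each class, and a fixed core. Eif4a3, Eif4g3, Eif4e2, Eif4h, Eif1b, Eif2a, Eif2s2, Eif2b3, Eif3d and Ppp1r15b were named after their values were seen. Plots used matplotlib 3.10.9 in Python 3.11.15. Counted reads per library, and the error from 4 or 5 libraries a group, limit the precision.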

Additional observations from a re-analysis of the deposited data

Results flagged for a closer look

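Of 90 groups of 4 or 5 libraries examined for the genes named, 2 held a library far from the others of its group, and chance flags about 1 in 20 groups. Eef2kmt was at 13.5 CPM in Tie1-WT replicate 2, below the other Tie1-WT libraries. Etf1 was at 45.2 CPM in Tie1-WT replicate 4, below the other Tie1-WT libraries and above all Tie1-CR libraries.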

How the results depend on the processing

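Pseudocounts of 0.1 and 5 ended none of the calls of Eif4a1, Eif4a2, Eif5 and Pabpc1. The filter removed no gene, so the fit without it repeats the reported fit and is no check. TMM and quantile scaling gave 182 and 183 genes higher and 194 and 190 lower in Tie1-CR, beside 119 higher and 257 lower in the reported fit, and TMM left 3 translation factors and 3 pathway genes lower. With the GC content and length correction, chosen after seeing the data, 166 genes were lower, 3 translation factors and 3 pathway genes among them, and the medians were -0.0064 for initiation and 0.060 for elongation factors. Elongation minus initiation was -0.026 among genes averaging 20 CPM or more. It was -0.017 without regulators, modifying enzymes and Eef1e1 (elongation factors then -0.098). The cause of these shifts was not tested.

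Same-numbered libraries showed little shared deviation (r between -0.14 and 0.19), and replicate 4 alone was closest to its own number. Pairing by number was thus not evident, but so few values cannot exclude it. The reported fit used no pairing. A replicate block on 8 libraries gave 37 genes higher and 145 lower, with 3 translation factors and 2 pathway genes lower, and Eif3c at 0.0056. Leaving out each library in turn gave 6 to 110 genes higher and 54 to 245 lower, the fewest without Tie1-WT replicate 1. It gave 2 to 5 translation factors lower (2 without Tie1-WT replicate 1 or 2), 0 to 5 pathway genes lower, and elongation minus initiation of 0.0079 to 0.080.

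Small differences changed sign without being called. With TMM scaling these were Eif2b5 (0.018), Eif3c (0.023), Eif4a3 (0.011) and Eif4b (0.0038). With quantile normalization they were Eif2b5 (0.019), Eif3c (0.014), Eif4a3 (0.0040) and Eif4b (0.0099), and with the GC content and length correction Eif2b5 (0.0083), Eif3c (0.044) and Eif4b (0.0099). With a library left out, Eef1d ran from -0.0054 to 0.074, Eif1b from -0.12 to 0.012, Eif2b5 from -0.027 to 0.0087, Eif3c from -0.016 to 0.012, Eif4a3 from -0.050 to 0.010, Eif4b from -0.040 to 0.012 and Eif6 from -0.070 to 0.0097. Count-based tests were not run.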
